A study of Mus musculus with 12 samples.

Results

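The genes examined here are 10 markers that are used to sort or define mammary stem and progenitor cells, out of 23406 genes in the deposited expression table: Ly6a, Cd24a, Itga6, Itgb1, Itgb3, Cd44, Procr, Prom1, Aldh1a1 and Bmi1. They were taken by name, with earlier results of these data known. Each of the 10 was in the table, passed the filter on low values and had at least 630 reads in every library. Aldh1a1 encodes a cytosolic enzyme and Bmi1 a nuclear protein, so the name surface marker applies to the others only.

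RNA was sequenced from mammospheres, the clusters that mammary cells form when they are grown without attachment, at passage 2. All mice were C57BL/6J. The 4 groups were wild-type (WT) mice of 2 months, WT mice of 12 months, p66Shc knock-out (p66-/-, here KO) mice of 2 months and KO mice of 12 months, with 3 libraries each. The labels give 3 mice per age and genotype but do not tie a library to a mouse, so the p-values measure the spread between these libraries, which may be technical. The labels do not say which cells a sphere held, and each library is a bulk sample, in which fewer cells of a type and less RNA per cell cannot be told apart.

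Libraries held 31845169 to 109079737 reads in genes, and a floor of 3 reads stood for 0.029 to 0.0859 CPM (a read count scaled to library size by the authors). Shc1, the gene of p66Shc, had 266 to 311 CPM in 2-month WT, 203 to 219.6 in 12-month WT, 208.1 to 208.7 in 2-month KO and 162 to 178 in 12-month KO. Its reads sum all isoforms, of which the knock-out removes the longest, so this checks the labels only in part. The deposited scaling set the 2-month WT libraries apart from the others: library sizes recomputed over all 12 libraries moved by a mean of 0.06 on the log2 scale in 2-month WT and by -0.03 to 0.00 in the other groups.

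No single protein marks the mammary stem cell. Cells that can rebuild a mammary tree are enriched in the basal layer by intermediate CD24 (Cd24a) together with high CD29 (Itgb1) or CD49f (Itga6). Luminal progenitors and other luminal cells carry CD61 (Itgb3), CD133 (Prom1), Sca-1 (Ly6a) or aldehyde dehydrogenase activity (Aldh1a1) to differing degrees. CD44 and the protein C receptor (Procr) mark basal or mesenchymal-like states, and Bmi1 is a Polycomb protein needed for self-renewal. Most of these proteins are also made by other cells, among them endothelium, fibroblasts, platelets and leukocytes.

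In WT mammospheres the epithelial adhesion protein Cd24a was the member that changed most with age, rising 9.16-fold, while each of the others moved less than 2-fold. In KO mammospheres the surface protein Ly6a rose 15.7-fold with age, Aldh1a1 3.61-fold, the hyaluronan receptor Cd44 2.66-fold, the integrin chain Itgb3 2.07-fold and Prom1 2.02-fold, while the laminin receptor chain Itga6 fell. At 12 months KO mammospheres had more Aldh1a1, Ly6a, Itgb3 and Cd44 and less Cd24a and Itga6 than WT. Bmi1 was called in no comparison.

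Changes were tested in limma on log2(CPM + 0.5) over 13961 genes with Benjamini-Hochberg adjustment, and a gene was called at an adjusted p under 0.05. With age in WT 3 members rose, 2 fell and 5 were not called, where 58% of all genes were called (22.3% higher, 35.6% lower). With age in KO 7 rose, 1 fell and 2 were not called, against 67% of all genes (32.9% higher, 34.2% lower). Between genotypes at 2 months, 0 members were higher in KO and 5 were lower, against 16.1% of all genes (1.86% higher, 14.2% lower); with scaling recomputed over all 12 libraries 2 of the 5 calls, Ly6a and Prom1, were left. At 12 months 6 were higher and 2 lower, against 70.2% (31.3% higher, 38.9% lower). Of the calls with age in WT 38.6% were higher, and 50.9% in edgeR on recovered reads; at 2 months 11.5% were higher in KO, and 29.2% to 39.6% under the other scalings and tools, where quantile scaling moved the median of all genes by 0.11. The interaction, which subtracts the WT age effect from the KO one, was called for 9 members and was positive for 7, against 57.7% of all genes (31.4% higher, 26.2% lower). These comparisons share libraries with each other and are not independent.

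The median of the members' absolute log2 fold changes was 0.85 with age in KO and 1.03 between genotypes at 12 months, against 0.36 and 0.40 over all genes. It was 0.36 with age in WT (0.28 over all genes) and 0.14 between genotypes at 2 months (0.12 over all genes). Signed medians of the members were -0.02, 0.83, -0.14, 0.34 and 0.53 for the age effects in WT and KO, the genotype effects at 2 and at 12 months and the interaction, and those of all genes were -0.08, -0.02, -0.09, -0.07 and 0.02. The libraries of the groups compared did not overlap for 7 of 10 members with age in WT (62.3% of all genes), 10 with age in KO (72.9%), 6 between genotypes at 2 months (32.1%) and 8 at 12 months (73.9%).

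**Figure D1:**
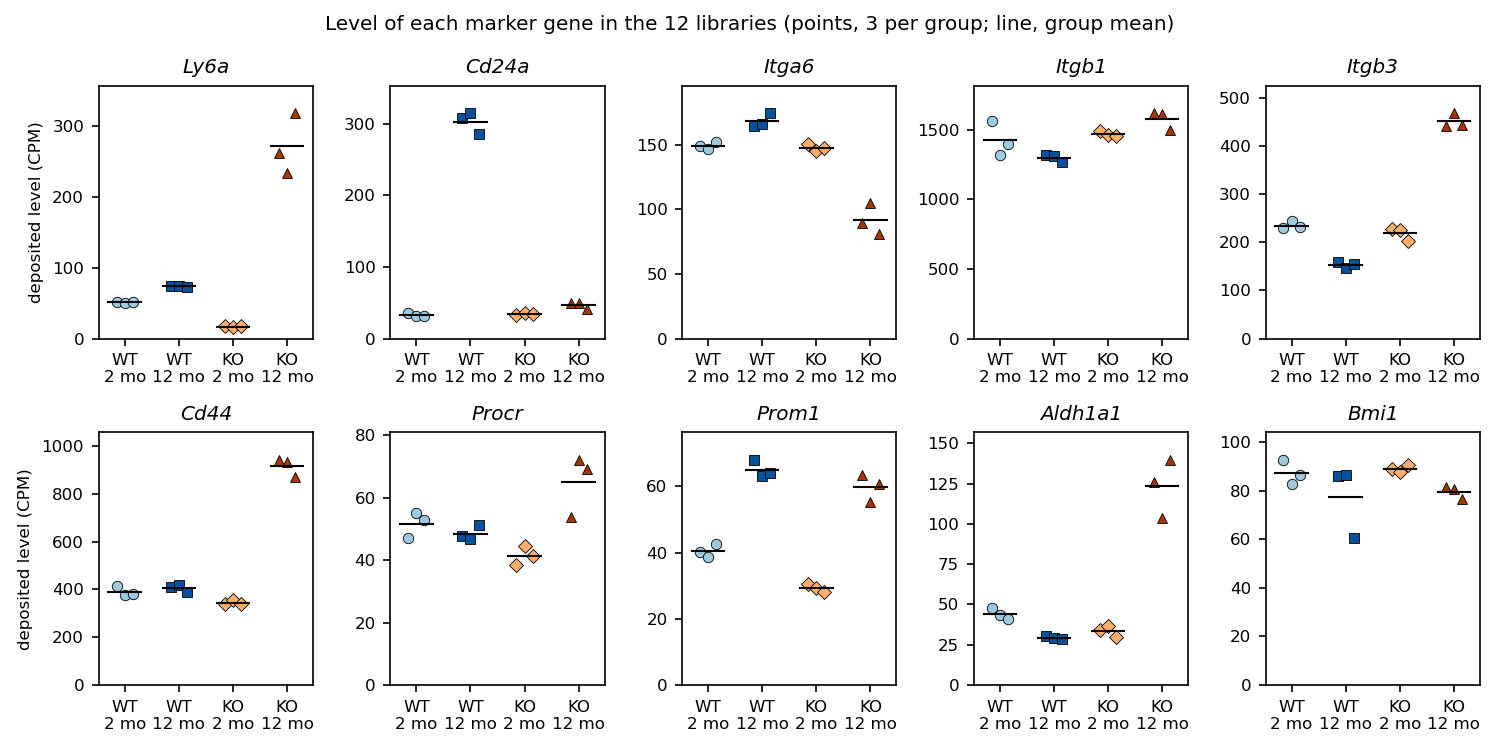
Deposited CPM of each of the 10 genes in the 12 libraries, with 1 point per library and a line at the mean of each group of 3. Cd24a stands high in the 12-month WT libraries (285 to 315 CPM against 31.0 to 50.0 elsewhere), and Ly6a, Itgb3, Cd44 and Aldh1a1 stand high in the 12-month KO libraries.

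**Figure D2:**
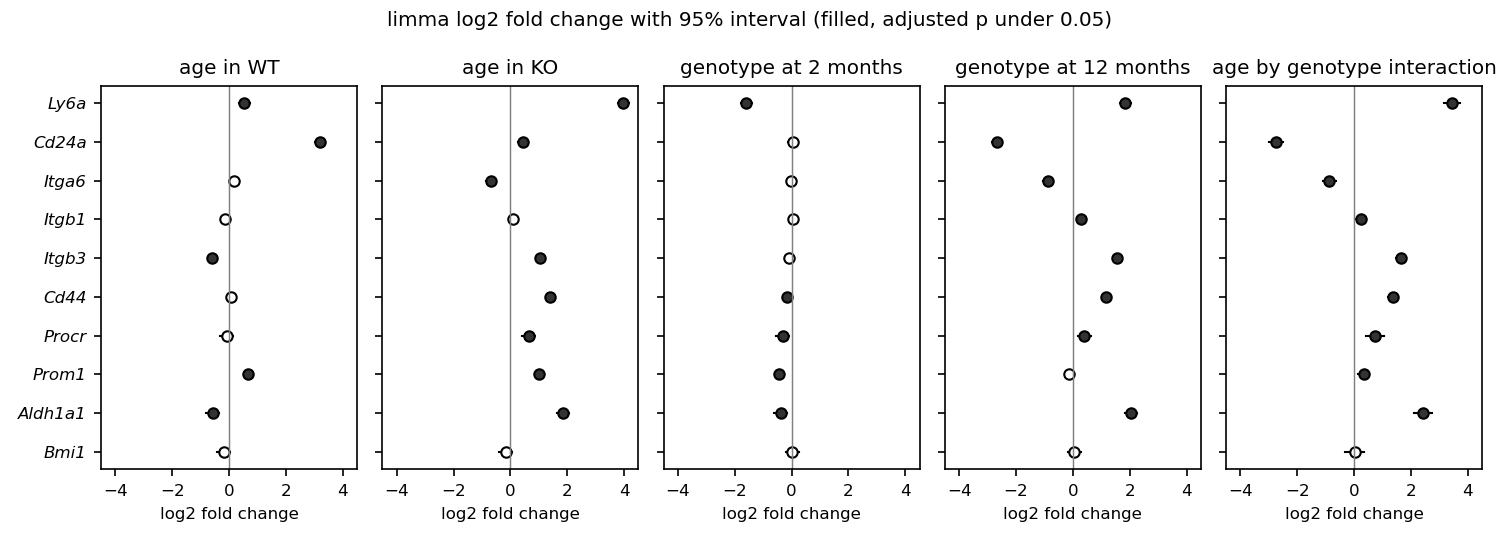
Log2 fold change of each gene in the 5 comparisons with its 95% interval, from limma on log2(CPM + 0.5); filled points had an adjusted p under 0.05. Ly6a ran from -1.59 between genotypes at 2 months to 3.98 with age in KO, and Bmi1 had an open point in every panel.

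Among the members that rose with age in KO, 4 had sequence at their start site in the RefSeq promoter table (build GRCm38.p6): Cd44, Procr, Prom1 and Aldh1a1. Their 250 bases before the start are printed 5′ to 3′ on the gene's strand. These 4 were printed because they had such an entry and rose with age in KO, as 32.9% of all genes did. With age in WT Prom1 rose, Aldh1a1 fell and Cd44 and Procr were not called. Capitals mark matches, on either strand, to the kappa-B motif of NF-kB factors (GGG and CC with any 5 bases between them) and the AP-1 motif of Fos and Jun factors (TGANTCA). No capitals stand in the Aldh1a1 sequence, which had no match.
Cd44, chr2:102901666-102901915, minus strand: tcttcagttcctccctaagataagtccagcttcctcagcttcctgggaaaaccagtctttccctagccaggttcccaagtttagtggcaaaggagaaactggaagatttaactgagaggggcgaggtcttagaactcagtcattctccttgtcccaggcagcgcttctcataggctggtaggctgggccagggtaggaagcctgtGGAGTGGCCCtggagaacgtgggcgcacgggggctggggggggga
Procr, chr2:155750967-155751216, plus strand: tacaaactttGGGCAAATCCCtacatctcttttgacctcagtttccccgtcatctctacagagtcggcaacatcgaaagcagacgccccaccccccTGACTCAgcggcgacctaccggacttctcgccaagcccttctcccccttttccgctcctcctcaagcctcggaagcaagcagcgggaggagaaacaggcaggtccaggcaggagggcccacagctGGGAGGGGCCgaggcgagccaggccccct
Prom1, chr5:44101737-44101986, minus strand: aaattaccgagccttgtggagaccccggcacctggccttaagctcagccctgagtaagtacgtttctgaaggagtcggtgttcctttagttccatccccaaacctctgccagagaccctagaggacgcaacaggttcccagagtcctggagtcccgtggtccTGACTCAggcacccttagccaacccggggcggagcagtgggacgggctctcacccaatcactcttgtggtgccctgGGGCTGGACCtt
Aldh1a1, chr19:20601718-20601967, plus strand: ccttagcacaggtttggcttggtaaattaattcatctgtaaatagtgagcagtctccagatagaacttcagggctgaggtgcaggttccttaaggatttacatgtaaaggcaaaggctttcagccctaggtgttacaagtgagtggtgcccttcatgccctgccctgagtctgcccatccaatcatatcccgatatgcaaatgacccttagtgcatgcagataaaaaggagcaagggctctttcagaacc

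Procr and Prom1 each held TGACTCA, 154 to 148 and 88 to 82 bases before the start. Of 32851 promoters cut to the same length, 6.75% held an AP-1 match and 45.8% a kappa-B match, so a kappa-B match is common. Procr had 3 kappa-B matches, of which GGGCAAATCC and GGCAAATCCC overlap, and Cd44 and Prom1 had 1 each. The interferon motifs TTCNNNGAA and a pair of GAAA with any 2 bases between them, held by 7.02% and 2.98% of promoters, had no match in these or in the other entries of the table for Itgb1, Prom1, Aldh1a1 and Bmi1. In those other entries the AP-1 motif matched in Prom1 and Aldh1a1, at starts 6968 and 109399 bases from the deposited ones, and the kappa-B motif in Prom1 and Bmi1. The matches describe letters in these windows and do not show binding. The table had 8 entries for 6 of the 10 members. Ly6a, Cd24a, Itga6 and Itgb3 were not matched.

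Cd24a (chromosome 10, 43579169 to 43584265, plus strand; mm10 as deposited, here and below) encodes CD24, a small glycoprotein that is anchored in the membrane by a lipid and is high on luminal cells. It measured 35.2, 31.0 and 31.6 CPM in the 3 libraries of 2-month WT and 307, 315 and 285 in 12-month WT. In KO it measured 33.0, 35.3 and 34.0 CPM at 2 months and 50.0, 49.9 and 40.6 at 12 months. The 12-month WT libraries stood far above all others, and the 12-month KO libraries lay above the 2-month KO libraries without overlap. With age it rose by 3.19 ± 0.08 on the log2 scale in WT (adjusted p = 3.41e-12), and the rise in KO was 0.45 ± 0.08 (adjusted p = 0.000283), which was smaller by 2.75 ± 0.11 (adjusted p = 7.36e-10). KO was lower than WT by 2.68 at 12 months (adjusted p = 1.75e-11), while at 2 months the difference was 0.07 with a 95% interval of -0.11 to 0.24 (adjusted p = 0.66). Among 13961 genes it ranked 151 from the top with age in WT and 148 from the bottom between genotypes at 12 months. How reads that also match processed copies of Cd24a were counted is not given in the sources used here.

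Cd24a moved with the luminal epithelium markers with age in WT and between genotypes at 12 months. The 10 genes of that list (among them Epcam, Krt8, Krt18 and Cdh1) summed to 322 to 403 CPM in 2-month WT, 3748 to 3905 in 12-month WT, 457 to 534 in 2-month KO and 453 to 474 in 12-month KO, and none was at 0 in any group. All 10 rose with age in WT and all 10 were lower in KO at 12 months. With age in KO 2 rose and 2 fell, and the summed level overlapped between the ages while Cd24a did not. At 2 months 5 of the 10 were higher in KO and 0 lower (median 0.30), while Cd24a was not called (0.07, adjusted p = 0.66). The 9 basal and myoepithelial markers summed to 64.6 to 76.5, 236 to 247.1, 71.9 to 74.1 and 97.5 to 101 CPM in the same order, and all 9 rose with age in WT, 6 with age in KO. The part of these cells in the Cd24a result was not tested.

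**Figure D3:**
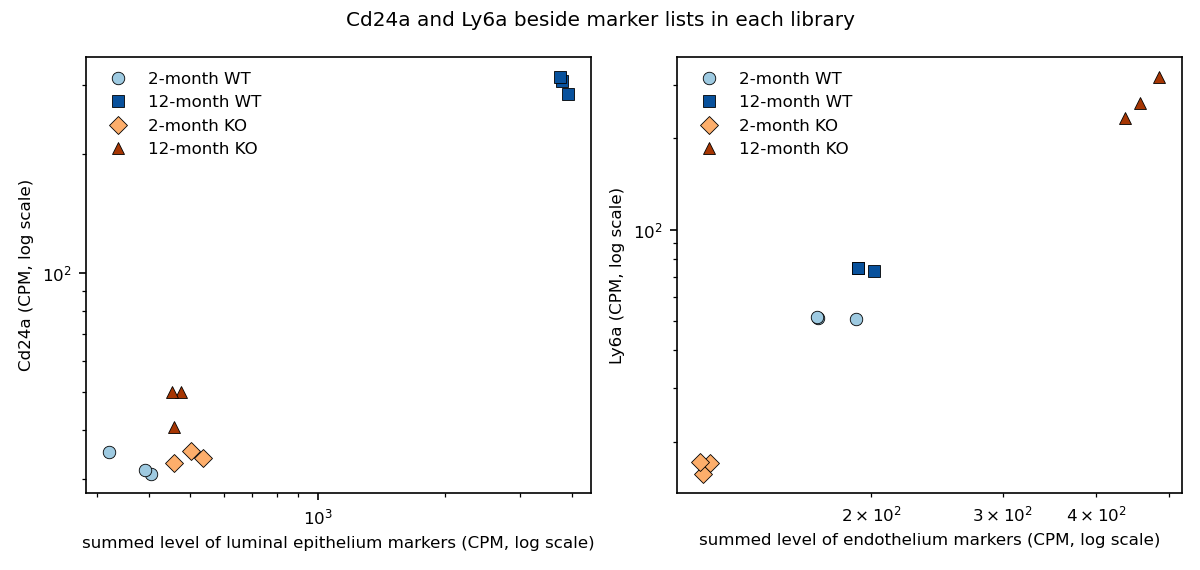
Left, Cd24a against the summed level of 10 luminal epithelium markers; right, Ly6a against the summed level of 12 endothelium markers; CPM on log scales, 1 point per library. The 12-month WT libraries stand apart on the left (3748 to 3905 CPM of luminal markers) and the 12-month KO libraries on the right (437 to 486 CPM of endothelium markers).

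Itga6 (chromosome 2, 71787083 to 71856758, plus strand) encodes integrin alpha 6, or CD49f, which pairs with beta 1 or beta 4 chains to bind laminin in the basement membrane. It measured 149, 146 and 152 CPM in 2-month WT, 165, 166 and 174 in 12-month WT, 151, 145 and 147 in 2-month KO and 89.2, 105 and 81.0 in 12-month KO. The 12-month KO libraries were the lowest without overlap, and the 2-month groups overlapped each other. It fell with age in KO by 0.69 ± 0.07 on the log2 scale (adjusted p = 2.77e-06) and was lower in KO at 12 months by 0.88 ± 0.07 (adjusted p = 2.18e-07). With age in WT the value was 0.17, with a 95% interval of 0.01 to 0.34, and did not pass (adjusted p = 0.0602; 0.24 and 0.0179 with scaling recomputed over all 12 libraries). The interaction was -0.87 ± 0.11 (adjusted p = 1.19e-05). At 2 months the difference between genotypes was -0.01 (interval -0.18 to 0.15, adjusted p = 0.931).

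Itgb1 (chromosome 8, 128685654 to 128733579, plus strand) encodes integrin beta 1, or CD29, the shared chain of most receptors for collagen, laminin and fibronectin. It was the most abundant member per kilobase in all 4 groups. It measured 1565, 1321 and 1399 CPM in 2-month WT, 1319.7, 1310.4 and 1267 in 12-month WT, 1494, 1461 and 1457 in 2-month KO and 1619.7, 1615 and 1498 in 12-month KO. At 12 months the KO libraries lay above the WT libraries without overlap. That difference of 0.28 ± 0.06 passed (adjusted p = 0.00138), but quantile scaling turned it to -0.16 (adjusted p = 0.0691). The values with age, -0.13 in WT (interval -0.27 to 0.00, adjusted p = 0.085) and 0.10 in KO (-0.04 to 0.24, adjusted p = 0.173), did not pass, but with quantile scaling the value in KO turned to -0.20 and was called (adjusted p = 0.0292). The interaction of 0.23 ± 0.09 (adjusted p = 0.0373) was lost with scaling recomputed over all 12 libraries (0.17, adjusted p = 0.128) and turned to -0.29 with quantile scaling.

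Itgb3 (chromosome 11, 104608000 to 104670471, plus strand) encodes integrin beta 3, or CD61, which pairs with the alpha V chain on many cells and with alpha IIb on platelets, and which separates luminal progenitors from mature luminal cells. It measured 229, 243 and 231 CPM in 2-month WT, 158, 146 and 154 in 12-month WT, 227, 226 and 202 in 2-month KO and 442, 468 and 443 in 12-month KO. The 12-month WT libraries were the lowest and the 12-month KO libraries the highest, with no overlap. With age the gene fell in WT by 0.62 ± 0.06 (adjusted p = 5.23e-07) and rose by 1.05 ± 0.06 in KO (adjusted p = 3.29e-09), and the interaction was 1.66 ± 0.08 (adjusted p = 2.09e-09). At 12 months KO was higher by 1.56 ± 0.06 (adjusted p = 6.82e-11), and at 2 months the value was -0.10 (interval -0.22 to 0.02, adjusted p = 0.249).

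The partners of Itgb3 differed in level and in pattern. Itgav, the alpha V chain, measured 603 to 689 CPM in 2-month WT, 381 to 454 in 12-month WT, 564 to 628 in 2-month KO and 654 to 844 in 12-month KO. It fell with age in WT by 0.59 (adjusted p = 9.34e-05) and was higher in KO at 12 months by 0.81 (adjusted p = 4.08e-06). Its rise with age in KO of 0.30 (adjusted p = 0.0111) was lost with quantile scaling (-0.01, adjusted p = 0.946). Itga2b, the platelet chain alpha IIb, lay between 0.691 and 2.41 CPM in all libraries and rose in KO by 0.92 (adjusted p = 7.12e-05). The 8 megakaryocyte and platelet markers, which include Itga2b, summed to 6.57 to 8.69 CPM in 12-month KO and 17.01 to 29.6 in the other groups, and Gp6 was at 0 in both KO groups. Pf4 made up most of that difference and fell with age in KO (-2.44, adjusted p = 1.29e-07), while of the 4 tested 2 rose and 1 fell with age in KO (median 0.35) and 2 were higher and 1 lower in KO at 12 months (median 0.27). The 6 osteoclast markers summed to 2178 to 2288 CPM in 12-month KO and 1807 to 2438 in the other groups, most of it Ctsk. Of the 3 tested, 2 rose and 1 fell with age in WT, 0 rose and 1 fell with age in KO, and 1 (Ctsk) was higher and 2 (Acp5 and Tnfrsf11a) were lower in KO at 12 months (median -0.90). The Ctsk calls with age in WT and at 12 months were lost with quantile scaling (-0.01 and -0.05, adjusted p = 0.945 and 0.533). The 7 mast cell markers and the 9 skeletal muscle markers tested moved in the directions of Itgb3 with age and between genotypes at 12 months. In WT 7 of 7 and 9 of 9 fell with age. In KO 7 and 5 rose with age, with 0 and 2 that fell, and 7 and 8 were higher in KO at 12 months. At 2 months 7 of 7 and 9 of 9 were lower in KO, while Itgb3 was not called (-0.10, adjusted p = 0.249). The part of platelets, osteoclasts, mast cells or muscle in the Itgb3 result was not tested.

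Of 21 other integrin subunits tested, 6 rose and 6 fell with age in WT (median -0.13), and 10 rose and 6 fell with age in KO (median 0.30). At 12 months 9 were higher and 8 lower in KO (median 0.13). The laminin receptor chains Itga3 and Itgb4, of which Itgb4 is the epithelial partner of Itga6, were higher in older WT, going from 13.3 to 85.6 CPM (log2 fold change 2.64 ± 0.08, adjusted p = 8.99e-12) and from 5.08 to 44.1 CPM (log2 fold change 3.01 ± 0.14, adjusted p = 8.56e-10). In KO, Itgb4 measured 6.12 CPM at 2 months and 6.27 at 12 months and was not called with age (adjusted p = 0.854), while Itga3 rose by 0.54 (adjusted p = 3.52e-05). Itgb8, which activates TGF-beta, rose from 3.10 to 46.0 CPM in WT and from 3.82 to 8.75 in KO (1.09, adjusted p = 4.77e-07). Itgb6, an epithelial chain of the same kind, rose in WT by 1.76 (adjusted p = 1.34e-09) and fell in KO by 0.46 (adjusted p = 0.000438).

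Laminins are the ligands of Itga6 and Itga3 receptors. Of 11 chains, 7 rose and 2 fell with age in WT (median 0.69), and 7 rose and 0 fell with age in KO (median 0.71), where 4 were not called. Lamb3, a chain of an epithelial laminin, rose in WT from 16.8 to 125 CPM (log2 fold change 2.87 ± 0.11, adjusted p = 6.65e-11) and was not called with age in KO (-0.23, adjusted p = 0.0667). Lama2, the chain of muscle and stromal basement membrane, fell in WT from 667 to 339 CPM (log2 fold change -0.98 ± 0.06, adjusted p = 7.03e-09) and rose in KO from 667 to 1633 (1.29 ± 0.06, adjusted p = 5.77e-10). Lama4, found around vessels, rose in both, by 0.55 in WT and by 1.44 in KO. The 11 skeletal muscle markers summed to 1098 to 1306 CPM in 2-month WT and 205 to 227 in 12-month WT, and to 324 to 369 and 847 to 1596 in KO of 2 and 12 months. Of the 9 tested, 9 fell with age in WT, and in KO 5 rose and 2 fell. Their part in the Lama2 result was not tested.

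The adaptors that link integrins to the cell skeleton were split. Of 21 tested, 6 rose and 5 fell with age in WT, 7 rose and 6 fell with age in KO, and 7 were higher and 7 lower in KO at 12 months, with medians of -0.04, 0.01 and -0.04 whose signs changed with the scaling. Tns1, which encodes tensin 1, fell in WT from 84.3 to 52.4 CPM (log2 fold change -0.68, adjusted p = 6.74e-06) and rose in KO from 58.8 to 179.8 (1.61, adjusted p = 1.6e-09). The epithelial kindlin Fermt1 did the reverse, rising in WT from 13.1 to 37.0 CPM (log2 fold change 1.47, adjusted p = 6.58e-07) and falling in KO from 16.6 to 9.44 (-0.79, adjusted p = 0.000184). Src, the tyrosine kinase at adhesion sites, rose in WT by 0.82 and fell in KO by 0.55, and Tln2, talin 2, rose in WT by 0.82 and fell in KO by 0.21 (adjusted p = 1.67e-05, 0.000427, 2.54e-07 and 0.0162).

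Cd44 (chromosome 2, 102811142 to 102901665, minus strand), whose promoter is printed above, encodes the main receptor for hyaluronan. It measured 416, 375 and 381 CPM in 2-month WT, 409, 417 and 389 in 12-month WT, 340.3, 354 and 339 in 2-month KO and 944, 933 and 872 in 12-month KO. The 12-month KO libraries stood far above the rest, at more than 2-fold the level of any other library among these 12. The 2-month KO libraries lay below all others without overlap. It rose with age in KO by 1.41 ± 0.05 (adjusted p = 1.76e-10), while in WT the value was 0.05, with an interval of -0.06 to 0.17 (adjusted p = 0.422; 0.26 and 0.00143 with quantile scaling). KO was higher at 12 months by 1.18 ± 0.05 (adjusted p = 5.43e-10), and the interaction was 1.36 ± 0.08 (adjusted p = 9.7e-09). At 2 months KO was called lower by 0.18 (adjusted p = 0.0396), a call lost with scaling recomputed over all 12 libraries (-0.09, adjusted p = 0.383). The leukocyte markers summed to 276 to 494 CPM in 12-month KO and 851 to 1354 in the other groups, and of 7 tested 7 fell with age in KO. Mast cell markers summed to 31.3 to 34.3 CPM in KO of 2 months and 180.3 to 216 in KO of 12 months, where 7 of 7 rose. The part of blood cells in the Cd44 result was not tested.

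The CD44-high, CD24-low surface pattern is used as a sign of a basal or mesenchymal-like progenitor state. The log2 ratio of Cd44 to Cd24a CPM within a library, which compares transcripts and not surface protein, was 3.58 ± 0.02 (SD, n = 3) at 2 months and 0.42 ± 0.02 at 12 months in WT, and 3.34 ± 0.03 and 4.30 ± 0.11 at the same ages in KO. With age it changed by -3.16 in WT and by 0.96 in KO, and at 12 months KO exceeded WT by 3.87. The difference at 2 months was -0.25. Each of the 4 differences had an exact two-sided permutation p of 0.1, the smallest that 3 against 3 libraries allow, and the libraries overlapped in none of the 4.

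Of 22 hyaluronan and CD44 partner genes tested, 5 rose and 10 fell with age in WT (median -0.13), 11 rose and 7 fell with age in KO (median 0.19), and 7 were higher and 9 lower in KO at 12 months (median -0.06). Tnfaip6, which links proteins to hyaluronan, fell in WT from 34.0 to 19.1 CPM (log2 fold change -0.82, adjusted p = 1.19e-06) and rose in KO from 38.5 to 208 CPM (log2 fold change 2.41 ± 0.08, adjusted p = 4.68e-11). Hgf, a growth factor that acts with CD44 through Met, fell in WT by 0.41 (adjusted p = 0.000159) and rose in KO from 55.6 to 138 CPM (log2 fold change 1.30, adjusted p = 2.29e-09). The hyaluronan synthase Has2 fell in WT from 51.3 to 26.9 CPM (log2 fold change -0.92, adjusted p = 6.74e-07) and was not called in KO, at 51.2 and 54.1 CPM (adjusted p = 0.45). Osteopontin, a CD44 ligand encoded by Spp1, fell in WT from 12247 to 6698 CPM (log2 fold change -0.87, adjusted p = 9.29e-08) and had 10764 and 10635 CPM in KO at 2 and 12 months (adjusted p = 0.837). The splicing factors Esrp1 and Esrp2, which favour the epithelial CD44 isoforms, rose in WT from 5.09 to 67.0 and from 1.25 to 16.5 CPM and less in KO, to 9.95 and 1.81 CPM (0.75 and 0.49, adjusted p = 4.61e-06 and 0.00107). Their interactions were -2.84 and -2.78 (adjusted p = 8.43e-10 and 6.39e-09). The deposited values sum all isoforms of a gene, so Cd44 isoforms were not measured.

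Procr (chromosome 2, 155751217 to 155755478, plus strand), whose promoter is printed above, encodes the endothelial protein C receptor, found on endothelium and on a basal cell fraction with repopulating activity. It measured 47.0, 55.1 and 53.0 CPM in 2-month WT, 47.7, 46.7 and 51.2 in 12-month WT, 38.3, 44.5 and 41.3 in 2-month KO and 53.7, 72.3 and 69.1 in 12-month KO. The 12-month KO libraries lay above the other KO and the 12-month WT libraries, and the lowest of them lay within the range of 2-month WT. It rose with age in KO by 0.64 ± 0.10 (adjusted p = 9.66e-05) while in WT the value was -0.09 (interval -0.31 to 0.13, adjusted p = 0.476), with an interaction of 0.73 ± 0.14 (adjusted p = 0.000748). KO was higher at 12 months by 0.41 ± 0.10 (adjusted p = 0.00285). At 2 months it was called lower in KO by 0.32 (adjusted p = 0.0489), a call that scaling over all 12 libraries lost (-0.23, adjusted p = 0.18). The endothelium markers moved in the same directions in KO: 12 of 12 rose with age and 12 of 12 were higher in KO at 12 months. At 2 months 10 of 12 were lower in KO, of which Tek was not called under any other scaling and tool run. The part of endothelium in the Procr result was not tested.

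In the protein C and thrombin pathway, 4 of 13 genes tested rose and 7 fell with age in WT (median -0.24), 7 rose and 5 fell with age in KO (median 0.16), and 8 were higher and 3 lower in KO at 12 months (median 0.44). Thbd, the thrombin receptor that starts protein C activation, fell in WT from 116 to 57.7 CPM (log2 fold change -0.997 ± 0.09, adjusted p = 3.06e-07) and rose in KO from 92.7 to 132 (0.50, adjusted p = 0.000173). Pros1, the cofactor protein S, rose in KO from 542 to 1202 CPM (log2 fold change 1.14 ± 0.07, adjusted p = 6.3e-09). Plat, a plasminogen activator, fell by 1.33 in WT and by 0.42 in KO (adjusted p = 2.13e-09 and 0.00012). The receptors divided: F2r, the main thrombin receptor, fell in both genotypes (-0.43 in WT, -0.75 in KO), and F2rl1 rose in WT from 5.54 to 37.9 CPM and in KO from 9.11 to 12.6 (2.67 and 0.44, adjusted p = 7.6e-11 and 0.00162). F2r was higher in KO at both ages, by 0.76 at 2 months (adjusted p = 3.94e-06) and by 0.44 at 12 months (adjusted p = 2.01e-05).

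Ly6a (chromosome 15, 74994877 to 74998031, minus strand) encodes Sca-1, a lipid-anchored surface protein of many stem and progenitor cells that endothelium, fibroblasts and T cells also carry. It measured 51.1, 50.7 and 51.6 CPM in 2-month WT, 74.7, 74.8 and 73.0 in 12-month WT, 17.04, 15.7 and 17.1 in 2-month KO and 261, 234 and 318 in 12-month KO. None of the 4 groups overlapped another. KO was the lowest group at 2 months and the highest at 12 months. KO was lower by 1.59 ± 0.09 at 2 months (adjusted p = 1.54e-07) and higher by 1.85 ± 0.09 at 12 months (adjusted p = 6.04e-10). With age the WT rise was 0.53 ± 0.09 (adjusted p = 0.000137) and the KO rise 3.98 ± 0.09 (adjusted p = 1.46e-12), an interaction of 3.44 ± 0.12 (adjusted p = 2.09e-10). Its rise in KO ranked 12 among 13961 genes, and its lower level in KO at 2 months ranked 58 from the bottom. These calls and directions held in every alternative run.

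The endothelium markers moved in the same directions as Ly6a in KO. The 12 genes summed to 170 to 191 CPM in 2-month WT, 192 to 202 in 12-month WT, 118 to 122 in 2-month KO and 437 to 486 in 12-month KO, with none at 0 in any group. All 12 rose with age in KO and were higher in KO at 12 months, and 10 were lower in KO at 2 months. Of these 10, Tek was not called under any other scaling and tool run. In WT 4 rose with age and 1 fell. These were 7 and 1 with scaling recomputed over all 12 libraries, in edgeR and in DESeq2, and 5 and 1 with quantile scaling. The endothelial adhesion gene Pecam1 rose in KO from 18.7 to 98.1 CPM (log2 fold change 2.36 ± 0.07, adjusted p = 2.14e-11) and Cdh5, VE-cadherin, from 9.60 to 60.3 CPM (log2 fold change 2.59 ± 0.08, adjusted p = 2.62e-11), while Ly6a rose by 3.98. The T cell marker Cd3e was at 0 in all groups but 12-month KO, which held the library with the most reads (109079737). Cd3g, another T cell gene, was at 0 in 12-month WT and 2-month KO only. The leukocyte list that holds both genes went the other way from Ly6a in KO: of 7 tested, 0 rose and 7 fell with age. The 10 fibroblast markers summed to 10650 to 11791 CPM in 2-month KO and 9295 to 10481 in 12-month KO, lower in every older KO library. Gene by gene they were split, as 4 rose and 6 fell with age in KO. At 12 months 5 were higher and 5 lower in KO (median 0.18). The part of endothelium in the Ly6a result was not tested.

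Genes of the Ly6 family lie close together and some share long stretches of sequence with Ly6a, and how reads that match several of them were counted is not given in the sources used here, so their split is uncertain. Of 6 tested, 4 rose and 0 fell with age in WT (median 1.10), 5 rose and 0 fell with age in KO (median 0.88), and at 12 months 1 was higher and 3 were lower in KO (median -0.37). Ly6c1, a close relative of Ly6a, measured 6.67 to 6.995 CPM in 2-month WT, 6.47 to 6.75 in 12-month WT, 2.55 to 2.60 in 2-month KO and 23.4 to 32.0 in 12-month KO. Ly6c1 was the lower in 2-month KO (-1.26 ± 0.10, adjusted p = 4.11e-06) and rose with age in KO (3.16 ± 0.10, adjusted p = 3.33e-11), as Ly6a did, and was not called with age in WT (-0.05, adjusted p = 0.713). Ly6c2 was at most 0.614 CPM in any library and was not tested. Ly6d, a luminal surface gene, rose in WT from 1.20 to 47.8 CPM and in KO from 0.768 to 4.04 (4.85 and 1.85), and Ly6e rose in both, from 139.9 to 347 CPM in WT and from 116 to 260.5 in KO (1.31 and 1.16). The keratinocyte gene Lypd3 rose in WT by 2.81 and in KO by 0.60.

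Prom1 (chromosome 5, 43993622 to 44101736, minus strand), whose promoter is printed above, encodes prominin 1, or CD133, a protein of membrane protrusions that marks hormone-sensing luminal cells in the mouse. It measured 40.2, 38.6 and 42.7 CPM in 2-month WT, 68.1, 63.0 and 64.1 in 12-month WT, 30.5, 29.3 and 28.1 in 2-month KO and 63.3, 55.4 and 60.6 in 12-month KO. Both 12-month groups were high and overlapped each other, and the 2-month groups did not overlap them. It rose with age in WT by 0.68 ± 0.06 (adjusted p = 8.59e-07) and in KO by 1.01 ± 0.06 (adjusted p = 1.63e-08), and the rise in KO was larger by 0.34 ± 0.09 (adjusted p = 0.0066; 0.063 with quantile scaling). KO was lower at 2 months by 0.46 ± 0.06 (adjusted p = 0.000343). At 12 months the difference was -0.12, with an interval of -0.26 to 0.02 (adjusted p = 0.106). Its relative Prom2, an epithelial gene, rose in WT from 0.629 to 12.1 CPM (log2 fold change 3.48 ± 0.12, adjusted p = 5.51e-11) and in KO from 0.586 to 1.91 (1.16 ± 0.12, adjusted p = 2.59e-06), and in Prom2 the rise in KO was the smaller (-2.32 ± 0.18, adjusted p = 1.35e-07). Selp, which encodes P-selectin of endothelium and platelets, a partner of CD24, rose in KO from 0.155 to 2.74 CPM (log2 fold change 2.30, adjusted p = 1.04e-08). Selplg, which encodes the leukocyte ligand of P-selectin and is not itself a CD24 partner, fell in KO from 5.77 to 2.77 CPM (log2 fold change -0.96, adjusted p = 0.000227).

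Aldh1a1 (chromosome 19, 20601982 to 20643462, plus strand), whose promoter is printed above, encodes a cytosolic dehydrogenase that makes retinoic acid and is among the sources of the enzyme activity used to sort progenitors. It measured 48.0, 43.3 and 40.7 CPM in 2-month WT, 30.2, 28.9 and 28.5 in 12-month WT, 34.3, 36.4 and 29.98 in 2-month KO and 126, 104 and 139.9 in 12-month KO. The 12-month KO libraries were above all others, and the 12-month WT libraries were below the 2-month WT libraries without overlap. With age the gene fell in WT by 0.58 ± 0.10 (adjusted p = 0.000276) and rose by 1.85 ± 0.10 in KO (adjusted p = 4.43e-09), an interaction of 2.44 ± 0.15 (adjusted p = 1.48e-08). At 12 months KO was higher by 2.05 ± 0.10 (adjusted p = 1.18e-09), rank 130 from the top of 13961 genes. At 2 months KO was called lower by 0.39 ± 0.10 (adjusted p = 0.0213), a call that scaling over all 12 libraries lost (-0.30, adjusted p = 0.0797). The 10 fibroblast markers, 9 of which fell in WT, summed to 11386 to 12274 CPM in WT of 2 months and 7356 to 7767 in WT of 12 months, while in KO 4 rose and 6 fell. The 6 adipocyte markers summed to 303 to 312 CPM in 12-month KO and 128 to 182 in the other groups, nearly all of it Fabp4. Adipoq instead fell with age in KO (-0.62, adjusted p = 0.00103). At 12 months Adipoq was the lower in KO (-0.34, adjusted p = 0.0349), a call lost with quantile scaling (-0.17, adjusted p = 0.302). The mast cell and skeletal muscle markers had the directions given beside Itgb3, which are also those of Aldh1a1. Erythroid markers summed to at most 0.458 CPM. The part of these cells in the Aldh1a1, Itgb3 and Cd44 results was not tested.

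The other dehydrogenases of that family were split. Of 16 tested, 4 rose and 4 fell with age in WT (median -0.05, above 0 under every other scaling and tool run), 7 rose and 3 fell with age in KO (median 0.15), and 4 were higher and 7 lower in KO at 12 months (median -0.10, and 0.01 with quantile scaling). Aldh1a3, the retinoic acid enzyme of luminal progenitors, went the other way from Aldh1a1: in WT it rose from 15.8 to 33.8 CPM (log2 fold change 1.07 ± 0.11, adjusted p = 2.46e-06) and measured 16.9 and 16.1 CPM in KO (-0.09, adjusted p = 0.509). Aldh1a2 was low, at 0.185 and 0.323 CPM in WT and 0.128 in 2-month KO, and ran from 0.331 to 3.45 CPM in 12-month KO, so that its call with age in KO (1.32 ± 0.40, adjusted p = 0.0102) came with libraries far apart. Aldh1a7, a near copy of Aldh1a1, had 0.818 CPM in 12-month KO and 0.186 to 0.245 elsewhere and was not tested. Aldh3a1 rose in WT from 0.478 to 10.5 CPM (log2 fold change 3.49, adjusted p = 2.27e-11) and was not called with age in KO (0.12, adjusted p = 0.379). The mitochondrial folate enzyme Aldh1l2 and its cytosolic counterpart Aldh1l1 fell in WT (-1.0002 and -0.43) and rose in KO (0.46 and 0.49), and Aldh6a1 rose in KO by 0.71 (adjusted p = 2e-06).

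Genes that move or read retinoids were mostly lower in KO at 12 months, 10 of 14 tested with 3 higher (median -0.89). With age in WT 5 rose and 5 fell (median 0.14), and with age in KO 3 rose and 6 fell (median -0.06). Rarb, a retinoic acid receptor that retinoic acid itself induces, fell in KO from 43.4 to 12.3 CPM (log2 fold change -1.78 ± 0.07, adjusted p = 2.87e-10). The retinol importer Stra6 fell in KO from 14.2 to 2.84 CPM (log2 fold change -2.14 ± 0.11, adjusted p = 2.22e-09), and Cyp26b1, which breaks retinoic acid down, from 9.39 to 4.86 (-0.89, adjusted p = 2.37e-06). In WT, Cyp26b1 rose by 0.74 (adjusted p = 1.45e-05) and the retinol dehydrogenase Rdh10 from 34.0 to 186 CPM (log2 fold change 2.43 ± 0.08, adjusted p = 2.21e-11). Rdh10 rose less in KO, from 38.6 to 56.5 CPM (log2 fold change 0.54, adjusted p = 4.02e-05).

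Bmi1 (chromosome 2, 18677018 to 18686629, plus strand) encodes a subunit of Polycomb repressive complex 1, which silences the Cdkn2a locus. It measured 92.8, 82.8 and 86.3 CPM in 2-month WT, 86.0, 86.3 and 60.3 in 12-month WT, 88.9, 87.6 and 90.5 in 2-month KO and 81.6, 80.7 and 76.5 in 12-month KO. Replicate 3 of 12-month WT stood apart from its 2 replicates. The log2 values were -0.19 with age in WT (interval -0.42 to 0.05, adjusted p = 0.155), -0.16 with age in KO (-0.39 to 0.07, adjusted p = 0.203), 0.03 and 0.06 between genotypes at 2 and 12 months (adjusted p = 0.901 and 0.65) and 0.03 for the interaction (-0.30 to 0.36, adjusted p = 0.887). Age in KO was called at the same value of -0.16 with only the groups compared in the fit (adjusted p = 0.0156) and without replicate 3 of 12-month WT (adjusted p = 0.0158). Without that replicate the difference at 12 months turned to -0.11 (adjusted p = 0.1).

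Among 22 other Polycomb subunits, 9 rose and 6 fell with age in WT (median 0.16), 7 rose and 8 fell with age in KO (median -0.13), and 6 were higher and 13 lower in KO at 12 months (median -0.31). With scaling recomputed over all 12 libraries 11 rose and 3 fell with age in WT. With quantile scaling 6 were higher and 9 lower in KO at 12 months (median -0.14). Cbx7, a chromatin reader of the same complex, rose in WT from 2.81 to 18.8 CPM (log2 fold change 2.54 ± 0.10, adjusted p = 1.7e-10) and in KO from 1.54 to 4.66 (1.34, adjusted p = 9.81e-08). Cbx6 and Phc2 rose in WT (0.61 and 0.47) and fell in KO (-0.43 and -0.70). Ezh2, the methyltransferase of Polycomb repressive complex 2 and high in dividing cells, fell in both, by 0.58 in WT and by 0.88 in KO (adjusted p = 1.74e-05 and 2.6e-07). Rnf2, the ubiquitin ligase partner of Bmi1, fell in WT by 0.55 (adjusted p = 0.000231) and in KO by 0.27 (adjusted p = 0.0228). Pcgf2, the closest relative of Bmi1, was at 2.34 to 3.32 CPM as a group mean and rose in WT by 0.42 (adjusted p = 0.00964; 0.062 with quantile scaling).

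Cdkn2a, the locus that Bmi1 silences, measured 7.97 to 15.9 CPM in 2-month WT, 12.6 to 17.02 in 12-month WT, 10.2 to 13.8 in 2-month KO and 2.19 to 3.71 in 12-month KO. It fell with age in KO by 1.77 ± 0.24 (adjusted p = 1.93e-05) and was not called with age in WT (0.26, adjusted p = 0.357). The interaction for Cdkn2a was -2.03 ± 0.33 (adjusted p = 0.000164). Of the 7 cyclin-dependent kinase inhibitor genes, 0 rose and 6 fell with age in KO (median -1.09), and 2 rose and 3 fell in WT (median -0.11, and 0.03 with quantile scaling). Cdkn1c, Cdkn2c and Cdkn2d fell in both genotypes, with values of -1.39, -1.12 and -1.17 in WT and -1.28, -1.09 and -1.15 in KO, with interactions of 0.11, 0.03 and 0.01 (SE 0.12, 0.11 and 0.13). Cdkn1b rose in WT by 0.53 (adjusted p = 0.00072) and fell in KO by 0.61 (adjusted p = 0.00022).

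The age effects of the members in the 2 genotypes lay in different directions of the plot of age in KO against age in WT. Cd24a lay far to the right near the horizontal axis, and Ly6a, Cd44 and Procr near the vertical axis, with values in WT of 0.53, 0.05 and -0.09 and in KO of 3.98, 1.41 and 0.64. Prom1 alone among the members rose by more than 0.6 in both (0.68 and 1.01). Itgb3 and Aldh1a1 were the members with calls of opposite sign. These 2 genes had values of -0.62 and -0.58 in WT and 1.05 and 1.85 in KO.

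**Figure D4:**
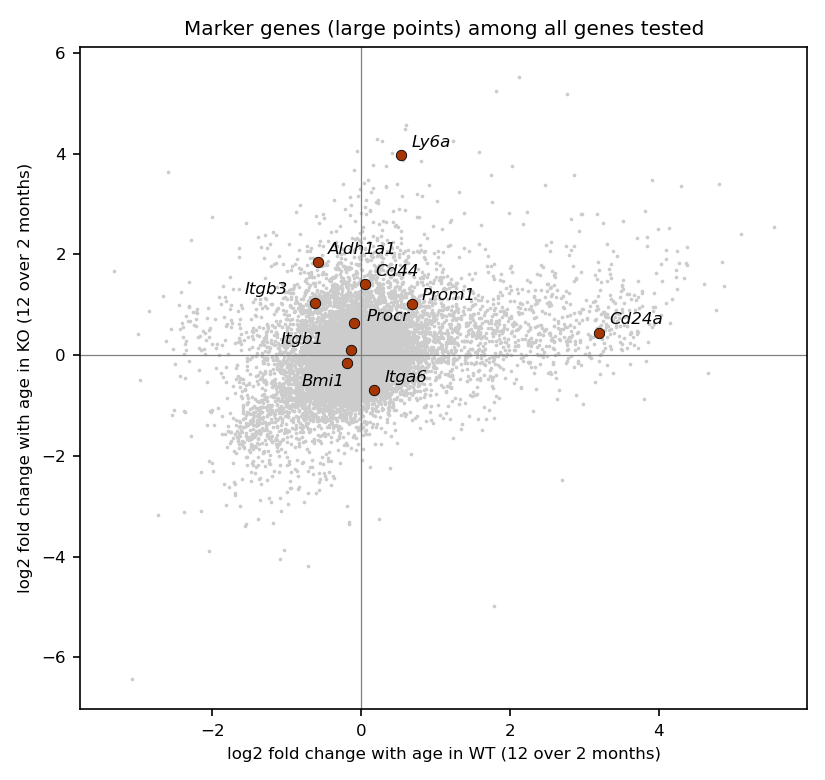
Log2 fold change with age (12 over 2 months) in WT on the horizontal axis and in KO on the vertical axis, for the 13961 genes tested (grey) and the 10 marker genes (large points). Cd24a lies at 3.19 and 0.45, Ly6a at 0.53 and 3.98, and Itgb3 and Aldh1a1 in the upper left of the plot, negative in WT and positive in KO.

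Levels of different genes were compared as CPM per kilobase of the longest annotated transcript. In 2-month WT the order of group means was Itgb1 (374 CPM per kilobase), Cd44 (69.6), Ly6a (53.5), Itgb3 (40.5), Itga6 (34.6), Procr (32.2), Bmi1 (24.3), Aldh1a1 (18.7), Cd24a (17.95) and Prom1 (9.90), where the libraries of Itga6 and Procr and of Aldh1a1 and Cd24a overlapped. In 12-month WT Cd24a moved up to 167, below Itgb1 at 341 and above Ly6a (77.6), Cd44 (72.1), Itga6 (39.1), Procr (30.2), Itgb3 (26.4), Bmi1 (21.6), Prom1 (15.9) and Aldh1a1 (12.4), and no neighbours in that order overlapped.

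In 2-month KO the order per kilobase was Itgb1 (386), Cd44 (61.4), Itgb3 (37.7), Itga6 (34.2), Procr (25.7), Bmi1 (24.8), Cd24a (18.8), Ly6a (17.4), Aldh1a1 (14.2) and Prom1 (7.17), and only Procr and Bmi1 overlapped. In 12-month KO Ly6a stood directly after Itgb1, at 284 against 414, followed by Cd44 (163), Itgb3 (77.9), Aldh1a1 (52.3), Procr (40.4), Cd24a (25.8), Bmi1 (22.1), Itga6 (21.3) and Prom1 (14.6). There the libraries of Aldh1a1 and Procr, of Cd24a and Bmi1 and of Bmi1 and Itga6 overlapped. The order depends on the transcript taken: over the 12 libraries Bmi1 ranked 9 with the longest transcript and 3 with the coding transcript of median length, which is 521 bases against 3594. Ly6a ranked 2 and 5 by the same 2 lengths and Cd44 ranked 3 and 2. Over the 12 libraries Ly6a thus stood above Cd44 only with the longest transcript.

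**Figure D5:**
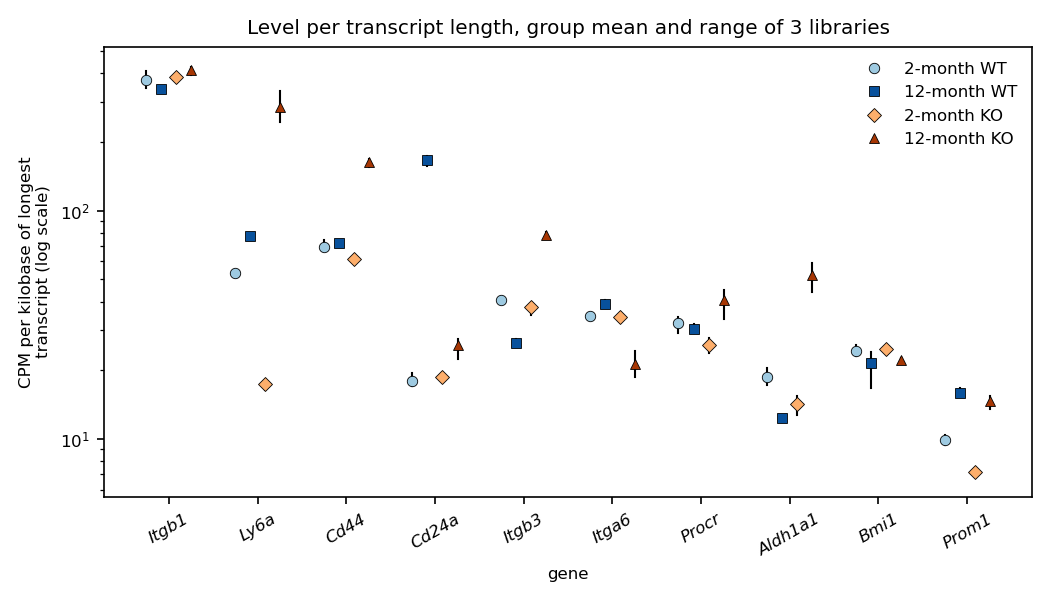
CPM per kilobase of the longest transcript on a log scale for each gene, as the mean of 3 libraries (point) and their range (line) in each group. Itgb1 is the highest in every group, at 341 to 414, and Ly6a moves from 17.4 in 2-month KO to 284 in 12-month KO.

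Other genes with the most similar profile over the 12 libraries were found by Pearson's r of log2(CPM + 0.5), given as a description, since the 12 points form 4 groups and share scaling. For Ly6a they were the neurotrophin receptor gene Ntrk2 (r = 0.996) and the endothelial genes Emcn (0.994) and Pecam1 (0.992). For Cd24a they were Lurap1l, Cdh1, which encodes E-cadherin, and Galnt3 (each 0.998). Itga6 was closest to Arl4c (0.989), Cbx2 (0.984) and Sh3bgrl2 (0.981), and Itgb1 to U2surp (0.974), Bclaf1 (0.968) and Canx (0.967). For Itgb3 they were Prune2 (0.995), Slc7a14 (0.994) and the growth factor gene Fgf10 (0.993), for Cd44 Clic4 (0.997), Lifr (0.995) and Wee1 (0.995), and for Aldh1a1 Sulf1 (0.995), Sgcb (0.993) and Scn7a (0.992). Prom1 was closest to Plk1s1 (0.987), Optn (0.986) and the progenitor receptor gene Kit (0.983). Procr and Bmi1 had no profile as close, with Ptpn11 (0.957) and Cmpk1 (0.955) at the top.

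Among themselves the members formed no single profile. Over the same 12 libraries Aldh1a1 correlated with Itgb3 at 0.96 and with Cd44 at 0.94, and Ly6a with Cd44 at 0.90. Itga6 ran opposite to Aldh1a1 (-0.97), Itgb3 (-0.94) and Cd44 (-0.90). Cd24a correlated with Prom1 at 0.70 and with Cd44 at -0.08. Bmi1 lay between -0.54 and 0.36 with every other member.

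Other mammary stem and progenitor markers, a list of 24 tested genes such as Kit, Elf5, Krt14 and Sox9, are given for comparison. The list shares Epcam with the luminal epithelium markers, Krt5, Krt14 and Trp63 with the basal and myoepithelial markers and Thy1 with the fibroblast markers. With age in WT 21 of 24 rose and 1 fell (median 1.25), with age in KO 15 rose and 2 fell (median 0.60), and at 12 months 4 were higher and 18 lower in KO (median -0.74). Of all genes 22.3% rose with age in WT, 32.9% rose with age in KO and 38.9% were lower in KO at 12 months. Of the luminal markers 10 of 10 rose with age in WT and 10 were lower in KO at 12 months, and of the basal markers 9 of 9 and 7. Kit, the receptor of luminal progenitors and of mast cells, rose from 11.1 to 83.6 CPM in WT and from 4.60 to 60.3 in KO (2.86 ± 0.07 and 3.58 ± 0.07, adjusted p = 4.35e-12 and 1.02e-12). The 7 mast cell markers summed to 129 to 145 CPM in 2-month WT, 43.9 to 55.4 in 12-month WT, 31.3 to 34.3 in 2-month KO and 180.3 to 216 in 12-month KO, and 7 of 7 fell with age in WT and rose with age in KO (median 2.62). Their part in the Kit result was not tested. Elf5, the alveolar factor, rose in WT from 2.11 to 49.0 CPM and in KO from 1.44 to 7.67 (4.25 and 2.07). Sox10 rose in WT from 3.16 to 50.2 CPM (log2 fold change 3.83, adjusted p = 1.33e-10), and Epcam, which encodes the epithelial adhesion molecule, from 53.4 to 407 CPM (log2 fold change 2.92, adjusted p = 1.05e-11). In KO, Sox10 and Epcam were not called with age (-0.12 each, adjusted p = 0.481 and 0.228).

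At 2 months, where 16.1% of all genes were called, the shares called differed between lists. Called higher and lower in KO were 5 and 10 of the 24 other stem and progenitor markers, 0 and 4 of 21 integrin subunits, 0 and 4 of 21 adaptors, 3 and 1 of 11 laminins, 0 and 4 of 16 dehydrogenases and 3 and 2 of 14 retinoid genes. They were 0 and 2 of 22 Polycomb subunits, 0 and 0 of 7 kinase inhibitors (limma), 0 and 2 of 6 Ly6 genes, 0 and 2 of 22 hyaluronan genes and 5 and 2 of 13 protein C genes. These counts depended on the scaling: with library sizes recomputed over all 12 libraries the list of other stem and progenitor markers had 5 higher and 3 lower, and the integrins and the adaptors had 3 higher and 2 lower each.

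The interaction was called higher for 5 and lower for 13 of the 24 other stem and progenitor markers (median -0.48), for 10 and 8 of the integrins (0.44), 5 and 4 of the laminins (0.43), 5 and 4 of the dehydrogenases (0.02) and 3 and 9 of the retinoid genes (-0.74). It was called higher for 5 and lower for 8 Polycomb subunits (-0.31), 7 and 9 hyaluronan genes (0.04) and 5 and 3 protein C genes (0.11). With quantile scaling the laminin median was -0.01, the dehydrogenase median -0.01 and the hyaluronan median -0.20.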

How the data were processed

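Total RNA of 12 mouse mammosphere libraries, 3 in each of 4 groups of age and genotype, was extracted with the PicoPure kit and prepared with a TruSeq Stranded total RNA kit, per the labels. Per the submitters' processing notes, reads were treated with TopHat2 2.1.0, Bowtie2 2.2.4, SAMtools 0.1.18 and HTSeq 0.6.1p1 on mm10. Not given in the sources used here: annotation, strand setting and the handling of reads with several matches. Per the file headers, the authors deposited a signal per gene and library, namely CPM scaled by TMM in edgeR.

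Whole reads were recovered from the smallest steps of each library, and 100% of the values lay within 0.1 of a whole number. Floors cover counting error only. The main test was limma 3.58.1 (run in R 4.3.3, variance trended on the mean) on log2(CPM + 0.5), a scale that understates changes of low genes, over the 13961 genes whose mean reached 0.5 CPM. It used a model of the 4 groups with 8 residual degrees of freedom and Benjamini-Hochberg adjustment within each comparison. Values after ± are SE for log2 fold changes and SD otherwise. Alternatives were other pseudocounts and filters, TMM over all 12 libraries, quantile scaling, edgeR 4.0.16 and DESeq2 1.42.0 on the recovered reads, only the groups compared, a replicate block and leaving out each library.

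The members and lists were chosen with earlier results of these data known. All members were named. Of each other list up to 4 called genes with the smallest p over the 5 comparisons were named, with set partners, copies and relatives of the members. Markers outside this rule (Pecam1, Cdh5, Ctsk, Acp5, Tnfrsf11a, Pf4, Fabp4, Adipoq, Cd3e, Gp6) were chosen after their values were seen. Some genes that the rule names are not reported here. Starts in the table count from 0 and are given here from 1. Transcript lengths are from GENCODE vM21, promoters from RefSeq on GRCm38.p6.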

Additional observations from a re-analysis of the deposited data

Results flagged for a closer look

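The age effect differed between WT and KO for 9 of the 10 genes, by the interaction in limma (adjusted p under 0.05), where 57.7% of all genes were called. The KO age effect less the WT age effect was 3.445 for Ly6a, 2.436 for Aldh1a1, 1.664 for Itgb3, 1.356 for Cd44, 0.7272 for Procr, 0.3365 for Prom1 and 0.2341 for Itgb1, and it was -2.748 for Cd24a and -0.8654 for Itga6. For Itgb3 and Aldh1a1 the effects had opposite signs, and within each genotype the libraries of 12 months lay apart from those of 2 months, below them in WT and above them in KO. For Ly6a, Cd24a and Prom1 both effects were rises and differed in size. The value for Itgb1 is the least stable of these, as it was lost or reversed under 15 of 21 alternatives.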

How the results depend on the processing

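Of 1090 alternative values of the 50 member results, 1010 kept direction and side of the threshold, 48 lost a call, 12 gained one and 20 changed sign. Unless another cause is named, the cause was not tested. The genotype comparison at 2 months depended most on the processing. Its 2245 called genes became 1458 with TMM over all 12 libraries (426 higher, 1032 lower), 1322 with quantile scaling (523 and 799) and 1414 in edgeR (474 and 940), and 1407 to 3033 when 1 library was left out, with 1407 without 2-month KO replicate 1 and 1493 without 2-month KO replicate 3. Its 5 called members became 3 with no filter, and 2 with TMM, with quantile scaling, in edgeR and in DESeq2. They were 2 to 5 when 1 library was left out, 2 without 2-month KO replicate 1 or 3, and 3 without 2-month WT replicate 3, 12-month WT replicate 1 or 2, or 2-month KO replicate 2. Ly6a and Prom1 were called in each of these.

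Sign changes were as follows. With quantile scaling Itgb1 was 0.0941 with age in WT, -0.1977 with age in KO, -0.1591 between genotypes at 12 months and -0.2918 in the interaction. At 2 months Itga6 was 0.07355 with TMM, 0.05238 with quantile scaling, 0.0886 in edgeR and 0.07551 in DESeq2, and -0.02968 to 0.001218 when 1 library was left out. In edgeR Procr was 0.004244 with age in WT and Itgb3 0.0009173 at 2 months. At 2 months Itgb1 ran from -0.009079 to 0.113 and Bmi1 from -0.00779 to 0.07394 when 1 library was left out, and at 12 months Bmi1 ran from -0.1139 (without 12-month WT replicate 3) to 0.1425. The Bmi1 interaction was -0.03906 with TMM, -0.1066 with quantile scaling, -0.08233 in edgeR and -0.03069 in DESeq2, and -0.1431 to 0.1132 when 1 library was left out. None of these but the Itgb1 values at age in KO (adjusted p = 0.0292) and in the interaction (adjusted p = 0.0282) passed the threshold.

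The replicate block (the number as a term) called 5, 8, 5, 8 and 9 members in the 5 comparisons, as many as without it, and changed no member's call. Same-numbered libraries correlated at -0.163 to 0.589 in their deviations, over 0.1 in 8 of 18 pairs, so the numbers were not taken to pair the libraries. Depth did not limit the members, which had at least 630 reads in every library.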
